A study of Mus musculus with 6 samples.

Results

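Interleukin-6 (IL-6) and its relatives are secreted cytokines that signal through the shared receptor chain gp130, encoded by Il6st. Ligand binding activates Janus kinases (JAKs), which phosphorylate STAT3, and STAT3 dimers enter the nucleus and switch on target genes. One of these targets, Socs3, encodes a suppressor of cytokine signalling that binds gp130 and JAKs and closes a negative feedback loop, so that Socs3 mRNA is commonly read as a sign of recent cytokine signalling. In skeletal muscle, IL-6 is made by contracting fibres and, after injury, by infiltrating and resident mononuclear cells, and STAT3 acts in satellite cells and in fibres that waste.

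Here the mRNA levels of 10 genes of this pathway were followed in mouse tibialis anterior (TA) muscle: the ligands Il6 and Lif, the receptor chains Il6ra, Il6st and Osmr, the transcription factor Stat3, and the SOCS family inhibitors Socs1, Socs2, Socs3 and Cish. They were taken by gene symbol from a table of 41709 genes. All 10 symbols were found, and each had a single row. The list was drawn up with results of the same comparison in view, so the differences of these 10 genes between the groups are given as a description. No p is given for any of them, and the number that passed the fit across all genes is only counted beside the share of all genes that did.

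RNA-seq was available for 6 TA muscles of male C57BL/6J mice, collected 14 days after electroporation of plasmid DNA. In 3 muscles, the LrpprcWT group, the plasmid was pCMV6-Lrpprc WT-3xFlag, which encodes Flag-tagged wild-type mouse Lrpprc, an RNA-binding protein of mitochondria and nucleus. In the other 3, the LrpprcP27A group, it was pCMV6-Lrpprc P27A-3xFlag, in which proline 27 is replaced by alanine and can no longer be dihydroxylated. Both groups therefore carried Flag-tagged Lrpprc driven by the viral CMV promoter, an electroporated plasmid and a pretreatment with hyaluronidase, and no muscle without plasmid was among the libraries analysed here. The study used young and old mice, and the age of the mice behind these libraries is not given in the sources used here. The plasmids were injected into contralateral muscles, and libraries of the same replicate number are set side by side as pairs below.

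Levels are in TPM, the number of transcripts of a gene per 1000000 transcripts of its library, with reads divided by transcript length, so that levels of different genes can be compared. Because the total is fixed, a rise in some abundant genes lowers the TPM of all others. Differences are in log2(TPM + 1), LrpprcP27A minus LrpprcWT, a scale that shrinks the differences of weakly expressed genes. As deposited, most genes were lower with LrpprcP27A: of the 11611 genes whose mean TPM reached 1, 10217 had a negative difference and the median was -0.32. After median-of-ratios scaling, which sets the libraries to a common typical gene, the median of all genes was 0.036, and both scales are therefore given for each gene. The LrpprcWT libraries had 18603 to 19053 genes above 0 and the LrpprcP27A libraries 17774 to 18197, and Lrpprc itself was at 35.1, 37.0 and 75.2 TPM with LrpprcWT and at 26.9, 29.7 and 26.0 TPM with LrpprcP27A, plasmid and mouse transcripts not separated. The LrpprcWT library of replicate 2 stood nearer to the LrpprcP27A libraries than the other LrpprcWT libraries in several genes below, and values without it are given where they matter. Markers of macrophages and fibroblasts were lower with LrpprcP27A, as given with the results below. In bulk muscle, fewer cells of a type and less RNA per cell cannot be told apart.

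The promoters of Socs3, Cish and Il6 are shown because they hold matches to letters read by factors of this pathway. The sequences are RefSeq windows of mouse build GRCm38.p6, each from 250 bases before the gene's start to 50 after it, and 9 of the 10 genes had a window. Windows were searched on both strands for TTCNNNGAA, the spaced palindrome bound by STAT dimers, for the AP-1 site TGANTCA and for an NF-kB site (GGGA, any base, then TTTCC). No matches of different motifs overlapped in these genes. The STAT letters were in 2 of the 9 windows, those of Socs3 and Cish, and in 8.30% of all 32851 RefSeq windows of this length. In Socs3, on the minus strand, the match starts at base -154 counted from the gene's start, and it is in capitals in the 250 bases before the start, chr11:117969367-117969616.
Socs3: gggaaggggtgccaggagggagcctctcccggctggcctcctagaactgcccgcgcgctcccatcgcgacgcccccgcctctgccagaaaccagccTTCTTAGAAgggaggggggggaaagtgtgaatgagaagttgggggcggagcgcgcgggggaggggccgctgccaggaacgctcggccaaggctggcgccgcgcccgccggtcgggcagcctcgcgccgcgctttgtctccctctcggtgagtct
In Cish, on the plus strand, a pair of matches starts at bases 1 and 12 after the start, within chr9:107296657-107296680, again in capitals.
Cish: ttTTCCTGGAAagTTCTTGGAAat
In the 250 bases before the start of Il6, chr5:30012864-30013113 on the plus strand, no STAT match was found. Capitals mark its AP-1 letters, from base -249, and its NF-kB letters, from base -44.
Il6: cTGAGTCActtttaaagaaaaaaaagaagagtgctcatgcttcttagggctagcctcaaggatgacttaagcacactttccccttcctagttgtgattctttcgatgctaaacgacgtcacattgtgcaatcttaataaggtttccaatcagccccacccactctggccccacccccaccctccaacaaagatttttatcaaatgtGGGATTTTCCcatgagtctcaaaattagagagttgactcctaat
The AP-1 letters were also in the windows of Lif and Osmr, 3 of 9 against 7.81% of all windows, and the NF-kB letters in that of Il6 alone among the 9, against 0.411% of all windows. These matches describe the letters in the windows and say nothing of binding in these muscles.

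Socs3 stood far lower with LrpprcP27A than with LrpprcWT, and Il6 did too. Il6st, the shared receptor chain, was at nearly the same TPM in both groups as deposited. Socs1 was lower on both scales without overlap. As deposited, Stat3, Osmr, Il6ra, Lif, Socs2 and Cish were also lower in every pair, with overlapping groups. For Il6st, Socs2 and Cish the sign turned with the scaling. On that scale all LrpprcP27A values of Il6st and Socs2 lay above all LrpprcWT values.

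Of the ligands, Il6 (GRCm39, chr5:30218112-30224979, plus strand) was at 8.36, 1.29 and 12.3 TPM in the LrpprcWT libraries of replicates 1, 2 and 3. In the LrpprcP27A libraries it was at 0.744, 0.042 and 0.084 TPM. The groups did not overlap, but replicate 2 of LrpprcWT was far below the other LrpprcWT libraries and close to the highest LrpprcP27A library. The means were 7.30 ± 5.57 TPM (SD, n = 3) and 0.290 ± 0.394 TPM (SD, n = 3), 25.2-fold apart, and the difference was -2.39 (SE 0.56), or -2.15 after median-of-ratios scaling. By pair it was -2.42, -1.13 and -3.61, and with a pseudocount of 0.1 in place of 1 it was -4.23. With 1 library left out it ranged from -3.15 (without LrpprcWT replicate 2) to -1.88 (without LrpprcWT replicate 3).

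Lif (chr11:4207557-4222514, plus strand) encodes leukaemia inhibitory factor, which signals through gp130 and its own receptor chain. It was at 0.764, 0.342 and 1.12 TPM with LrpprcWT and at 0.369, 0.199 and 0.222 TPM with LrpprcP27A. The mean over all libraries was under the 1 TPM needed to enter the fit, and the groups overlapped, since LrpprcWT replicate 2 lay below LrpprcP27A replicate 1. Its difference was -0.44 (SE 0.20, from the 6 libraries alone), -0.30 after median-of-ratios scaling and -1.12 with a pseudocount of 0.1. Across the 6 libraries Lif ran closely with Il6 (Pearson r = 0.98, and 0.98 for the deviations from the group means), a description over libraries that share pairs and groups.

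Of the receptor chains, Il6st (chr13:112600604-112646620, plus strand) was at 34.9, 30.7 and 31.9 TPM with LrpprcWT and at 29.4, 29.7 and 32.6 TPM with LrpprcP27A. The groups overlapped, and the highest LrpprcP27A library lay within the LrpprcWT range. Its difference was -0.08 (SE 0.11) as deposited and 0.33 after median-of-ratios scaling, where all LrpprcP27A values lay above all LrpprcWT values. Among the 11611 genes, 81.3% had a lower difference than Il6st.

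Il6ra (chr3:89771366-89820719, minus strand) encodes the chain that binds IL-6 itself. Its level was 1.63, 1.15 and 2.59 TPM with LrpprcWT and 1.09, 0.796 and 1.56 TPM with LrpprcP27A. Every LrpprcP27A muscle was below its LrpprcWT partner, while the groups overlapped, and the differences by pair were -0.34, -0.26 and -0.49. The difference of the means was -0.36 (SE 0.22), close to the median of all genes, and -0.11 after median-of-ratios scaling.

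Osmr (chr15:6843053-6904450, minus strand) encodes the partner of gp130 in the oncostatin M receptor. It was at 3.25, 1.70 and 3.46 TPM with LrpprcWT and at 1.59, 1.02 and 1.94 TPM with LrpprcP27A. Again every pair went the same way while the groups overlapped, because LrpprcWT replicate 2 lay below LrpprcP27A replicate 3. The difference was -0.58 (SE 0.23) and -0.29 after median-of-ratios scaling. With 1 library left out it ranged from -0.81 (without LrpprcWT replicate 2) to -0.43 (without LrpprcP27A replicate 2).

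Stat3 (chr11:100775924-100830450, minus strand), which carries the signal from gp130 to the nucleus, was at 24.7, 12.9 and 23.4 TPM with LrpprcWT. With LrpprcP27A it was at 13.0, 9.71 and 13.2 TPM. LrpprcWT replicate 2 fell among the LrpprcP27A libraries, and the others lay well above them. The means were 20.3 ± 6.47 and 12.0 ± 1.95 TPM (SD, n = 3 each), and the difference was -0.68 (SE 0.24), or -0.28 after median-of-ratios scaling. With 1 library left out it ranged from -0.96 (without LrpprcWT replicate 2) to -0.52 (without LrpprcWT replicate 1). These are mRNA levels, and phosphorylation of STAT3 was not measured in these libraries.

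Among the SOCS inhibitors, Socs3 (chr11:117856905-117860898, minus strand), whose promoter with 1 STAT match is printed above, was at 32.5, 34.8 and 28.2 TPM with LrpprcWT. With LrpprcP27A it was at 8.33, 4.44 and 4.17 TPM. The groups lay far apart on both scales, and LrpprcWT replicate 2, low in Il6 and Stat3, had the highest Socs3 of all. The means were 31.8 ± 3.39 and 5.65 ± 2.33 TPM (SD, n = 3 each), 5.64-fold apart. The difference was -2.35 (SE 0.22), -1.97 after median-of-ratios scaling, and by pair -1.84, -2.72 and -2.50. Counted from the lowest difference, Socs3 was at place 26 and Il6 at place 22 among the 11611 genes. Leaving out each library in turn gave differences for Socs3 between -2.62 and -2.20.

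Socs1 (chr16:10600104-10603875, minus strand), which like Socs3 inhibits JAKs directly and is best known as a brake on interferon signalling, was at 0.907, 2.22 and 1.59 TPM with LrpprcWT. With LrpprcP27A it was at 0.466, 0.456 and 0.455 TPM. All LrpprcP27A values were below all LrpprcWT values, and their SD was 0.0063 TPM. The difference was -0.79 (SE 0.19), -0.61 after median-of-ratios scaling and -1.50 with a pseudocount of 0.1. At levels near 1 TPM this rests on little signal, and the number of reads behind it is unknown.

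Socs2 (chr10:95219523-95253929, minus strand), a regulator of growth hormone signalling, was at 3.06, 2.55 and 3.40 TPM with LrpprcWT and at 2.40, 2.30 and 2.88 TPM with LrpprcP27A. It was lower in each pair, but by less than the median of all genes, with a difference of -0.18 (SE 0.15). After median-of-ratios scaling the sign turned to 0.13, with all LrpprcP27A values above all LrpprcWT values.

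Cish (chr9:107173225-107179983, plus strand), a feedback inhibitor induced by STAT5, was at 2.55, 5.84 and 17.4 TPM with LrpprcWT and at 2.18, 5.14 and 11.4 TPM with LrpprcP27A. Both groups spanned a wide range in the same order of replicates, so that a muscle resembled its partner far more than its group. The difference was -0.30 (SE 0.62) as deposited and 0.053 after median-of-ratios scaling. By pair, as deposited, it was -0.16, -0.16 and -0.57. The SE comes from a fit without pairs, so it holds the wide spread between replicate numbers. From the 6 libraries of Cish alone the SE was 0.89. The difference was 0.34 without LrpprcWT replicate 3 and 0.19 without LrpprcP27A replicate 1.

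**Figure D1:**
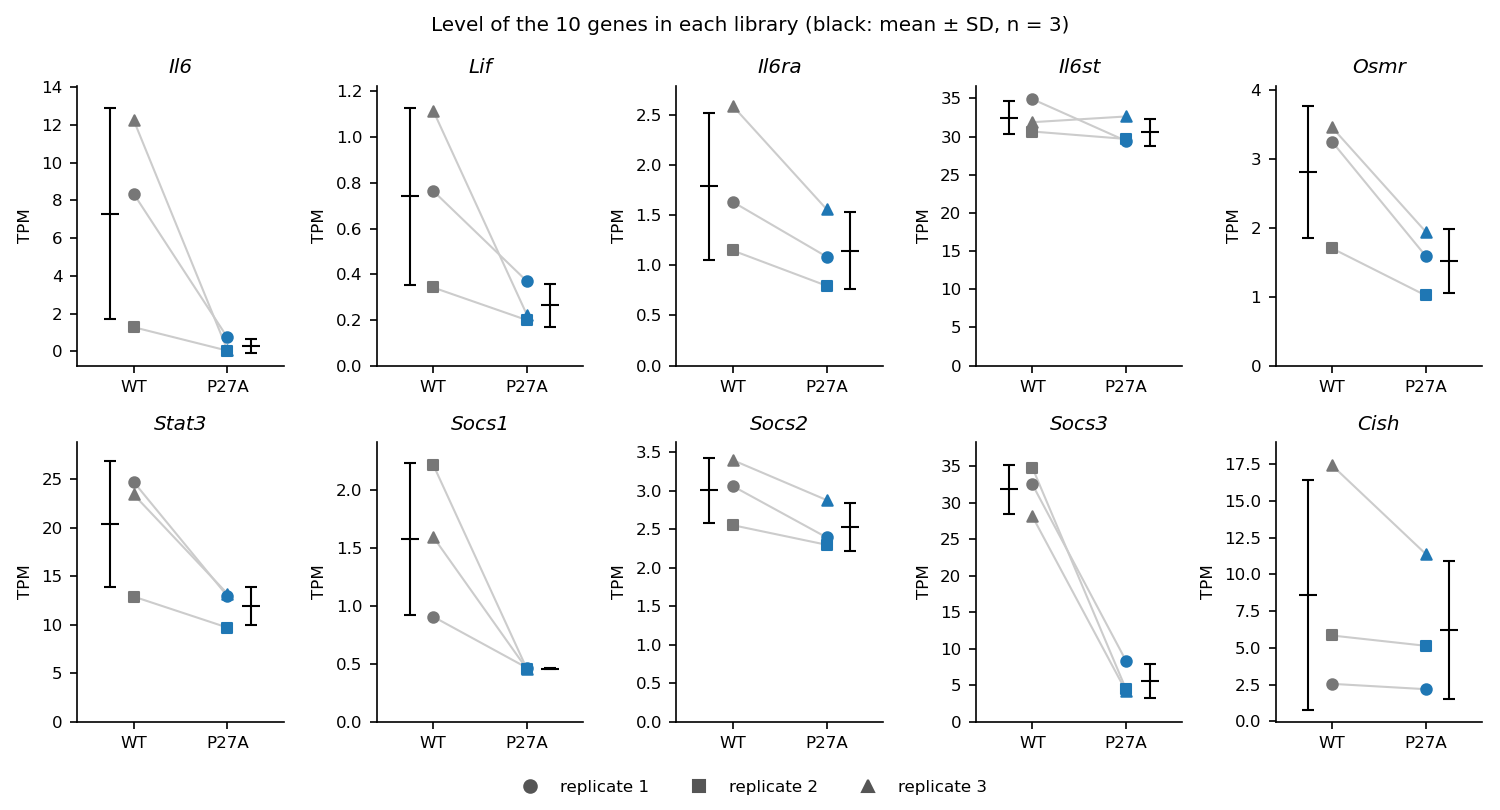
Level of each of the 10 genes in TPM (vertical axes, 1 scale per gene) in the 3 LrpprcWT libraries (grey) and the 3 LrpprcP27A libraries (blue). Marker shapes and grey lines join muscles of the same replicate number, black bars are the mean ± SD (n = 3), and Socs3, Il6 and Socs1 are the genes whose groups do not overlap.

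Counted over the list, all 10 genes had a negative difference as deposited, where 10217 of the 11611 tested genes did. The median over the 9 genes that entered the fit was -0.58, and -0.28 after median-of-ratios scaling. All LrpprcP27A values lay below all LrpprcWT values for 3 of the 10 genes, Il6, Socs1 and Socs3, and that was so for 47.6% of all tested genes, with 3.51% the other way round. After median-of-ratios scaling the same 3 lay below and Il6st and Socs2 lay above, against 16.4% and 23.2% of all tested genes. In the limma fit across all tested genes, 23.3% were lower at an adjusted p under 0.05 and 1.34% higher, and of the 9 genes 3 were lower and 0 higher. That number moved with the setting and with single libraries. It was 6 with the replicate number as a block (48.4% of all tested genes), 2 after median-of-ratios scaling (5.81%), and 3 with both, where 1 was higher (14.1% and 17.2%). It was 1 of 10 without the filter on low values, where 42 genes in all were lower. By the adjusted Kruskal-Wallis test it was 0, as over all tested genes. With 1 library left out, the share of all tested genes that were lower is given in brackets. It was 5 without LrpprcWT replicate 2 (59.5%), 2 without LrpprcWT replicate 1 (2.51%) and 3 without LrpprcP27A replicate 1 (14.5%). It was 1 without LrpprcWT replicate 3 (0.129%), LrpprcP27A replicate 2 (4.34%) or LrpprcP27A replicate 3 (3.79%). Because the list was chosen from this comparison, nothing is read from these counts.

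**Figure D2:**
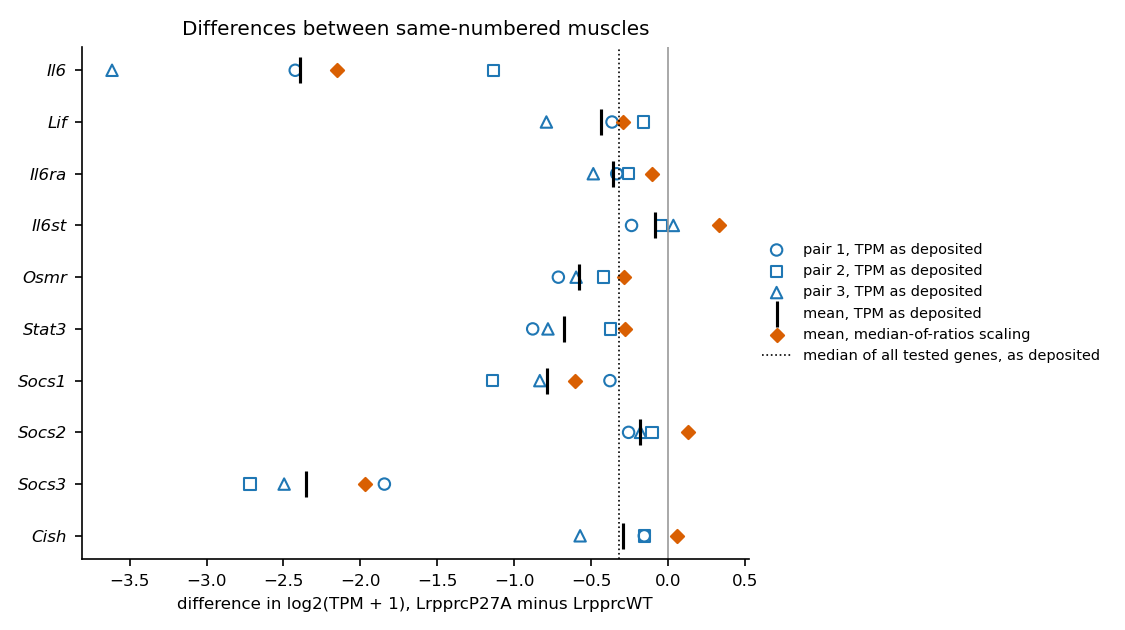
Difference in log2(TPM + 1), LrpprcP27A minus LrpprcWT (horizontal axis), for each of the 10 genes. Open symbols are the 3 pairs, black bars their mean, orange diamonds the mean after median-of-ratios scaling and the dotted line the median of all tested genes as deposited (-0.32). Socs3 and Il6 lie apart from the rest, and Il6st, Socs2 and Cish change sign between the scales.

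As deposited, the 10 genes differed in how their variation over the 6 libraries was divided. These shares can change with the scale and were not computed after median-of-ratios scaling. For Socs3, 94.4% of the sum of squares of log2(TPM + 1) lay between the groups and 3.25% between replicate numbers. Cish was the reverse, with 2.65% between the groups and 96.2% between replicate numbers. Il6ra and Socs2 also varied more with the replicate number (65.5% and 57.1%) than with the group (32.2% and 38.5%). For Il6, 68.5% lay between the groups, for Socs1 76.3%, for Stat3 54.1% and for Osmr 51.6%. The medians over all tested genes were 56.7% for the group and 25.7% for the replicate number.

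**Figure D3:**
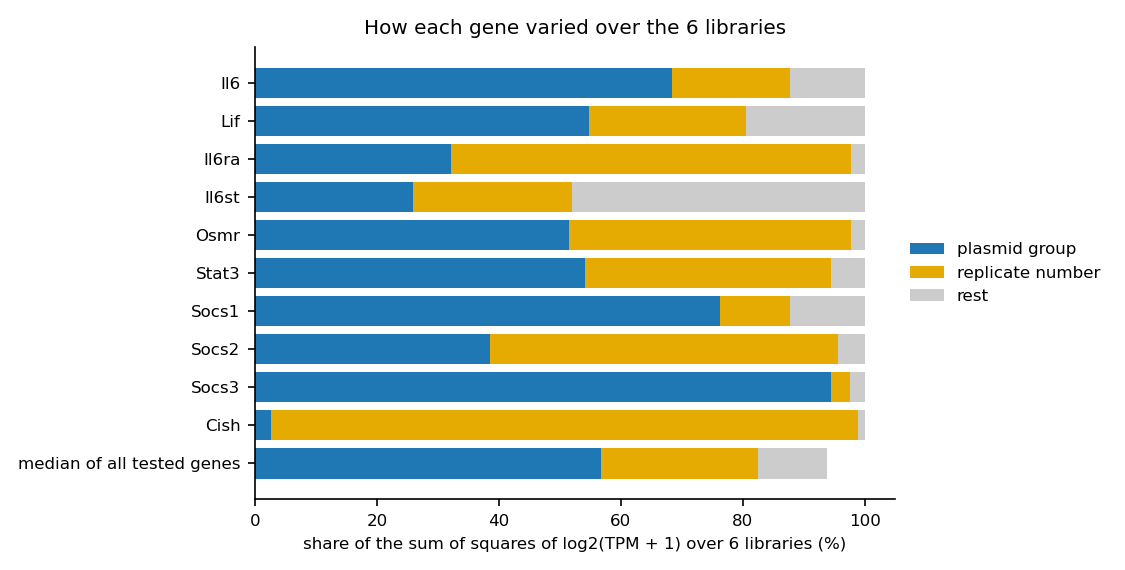
Share of the sum of squares of log2(TPM + 1) over the 6 libraries (horizontal axis, percent) that lay between the groups (blue), between replicate numbers (yellow) and in neither (grey), for each gene. Values are as deposited. The lowest bar stacks the medians over all tested genes, each taken separately, so that it does not reach 100%. Socs3 is nearly all blue and Cish nearly all yellow.

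Within the groups the genes also fell apart. Deviations of Il6 from the group means ran with those of Stat3 (Pearson r = 0.90 over the 6 libraries) and Osmr (0.82), and not with those of Socs3 (0.026). Over all libraries, groups included, the r of Il6 was 0.95 with Stat3, 0.92 with Osmr and 0.81 with Socs3, and that of Socs3 with Cish was -0.0089. These values describe 6 libraries that share groups, pairs and the total of each library.

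The order of the levels shifted in the place of Socs3. With LrpprcWT the order was Il6st (32.5 TPM), Socs3 (31.8), Stat3 (20.3), Cish (8.61), Il6 (7.30), Socs2 (3.01), Osmr (2.80), Il6ra (1.79), Socs1 (1.57) and Lif (0.741). Of neighbours in this order, only Socs3 and Stat3 had ranges that did not overlap. With LrpprcP27A the order was Il6st (30.6 TPM), Stat3 (12.0), Cish (6.24), Socs3 (5.65), Socs2 (2.53), Osmr (1.52), Il6ra (1.15), Socs1 (0.459), Il6 (0.290) and Lif (0.264). There, Il6st and Stat3, Socs3 and Socs2, Socs2 and Osmr, and Il6ra and Socs1 did not overlap, and Cish and Socs3 did. Socs3 thus went from place 2 to place 4, and Il6 from place 5 to place 9.

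Ratios of TPM within a library do not change with the scaling of the library. Socs3 over Stat3 was 1.32, 2.70 and 1.20 in the LrpprcWT libraries and 0.643, 0.458 and 0.316 in the LrpprcP27A libraries, so that the feedback inhibitor exceeded the transcription factor in all muscles of the first group and in none of the other. Socs3 over Il6st was 0.883 to 1.14 with LrpprcWT and 0.128 to 0.283 with LrpprcP27A. Socs3 over Socs2 was 8.28 to 13.6 and 1.45 to 3.48. The ranges of Socs3 over Socs1 overlapped (15.7 to 35.9 and 9.17 to 17.9), as did those of Socs3 over Il6 (2.29 to 27.1 and 11.2 to 105.8). For the receptors, Il6st over Il6ra was 12.3 to 26.7 and 20.9 to 37.3, and Il6st over Osmr was 9.22 to 18.0 and 16.8 to 29.1, with overlap in both.

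The genes outside the list whose log2(TPM + 1) was most like that of Socs3 were sought among the 7078 genes whose mean TPM reached 5, by Pearson r over the 6 libraries. They were Rrad (0.994), a small GTPase that restrains calcium channels, Gatm (0.992), an enzyme of creatine synthesis, E2f2 (0.982), a cell cycle transcription factor, Jund (0.980), an AP-1 subunit, and Sln (0.979), sarcolipin, an inhibitor of the calcium pump SERCA. For the deviations from the group means the r values were 0.888, 0.858, 0.848, 0.794 and 0.741. The genes were chosen by r over the same 6 libraries, so these values are not separate evidence. Rrad was at 34.8, 30.8 and 34.7 TPM with LrpprcWT and at 5.09, 2.42 and 2.35 TPM with LrpprcP27A, levels close to those of Socs3. The differences were -3.06 for Rrad, -1.28 for Gatm, -1.27 for E2f2, -1.14 for Jund and -4.27 for Sln.

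The other genes of the pathway were taken as 6 lists of 79 genes drawn from textbook knowledge, with earlier results of these data known. Of the 79, 64 had a mean TPM of at least 1. In the limma fit (Benjamini-Hochberg adjustment over all 11611 genes), 27 of the 64 were lower at an adjusted p under 0.05 (42.2%, where 23.3% of all tested genes were) and 0 were higher. At an unadjusted p under 0.05, 39 were lower and 1 was higher (44.2% and 2.59% of all tested genes). The median difference was -0.58, and 61 of the 64 were negative. With the replicate number as a block, 48 were lower and 1 was higher, where 48.4% and 2.69% of all tested genes were. After median-of-ratios scaling, 8 were lower and 2 higher with a median of -0.20, where 5.81% and 6.83% of all tested genes were, and with block and scaling together 21 were lower and 7 higher. The number of lower calls also moved with single libraries. It was 4 without LrpprcWT replicate 1 (2.51% of all tested genes were lower), 41 without LrpprcWT replicate 2 (59.5%) and 0 without LrpprcWT replicate 3 (0.129%). It was 26 without LrpprcP27A replicate 1 (14.5%), 7 without LrpprcP27A replicate 2 (4.34%) and 10 without LrpprcP27A replicate 3 (3.79%). The counts of each list below are to be read beside these shares of all tested genes under the same setting.

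The textbook STAT3 target and acute-phase genes held the most calls. Of 27 genes, 21 were tested and 13 were lower, with a median of -0.99 (17 with the block, and 3 after median-of-ratios scaling with a median of -0.59). The 13 became 3 without LrpprcWT replicate 1, 15 without LrpprcWT replicate 2 and 0 without LrpprcWT replicate 3. They became 14, 5 and 7 without LrpprcP27A replicates 1, 2 and 3. Mt2, a metallothionein that binds zinc, was at 125.0, 48.0 and 201.7 TPM with LrpprcWT and at 25.1, 7.11 and 42.0 TPM with LrpprcP27A. Its difference was -2.37 (SE 0.64, adjusted p = 0.0343 in limma, 0.0767 after median-of-ratios scaling). Timp1, an inhibitor of matrix metalloproteinases, was at 20.7, 9.27 and 17.1 TPM and at 6.39, 1.38 and 2.52 TPM, with a difference of -2.01 (SE 0.41, adjusted p = 0.0195 in limma). Myc, a transcription factor of growth, was at 13.4, 6.70 and 18.8 TPM and at 3.79, 2.27 and 2.84 TPM, with a difference of -1.73 (SE 0.31, adjusted p = 0.0160 in limma). In each of these 3 genes all LrpprcP27A values lay below all LrpprcWT values, and LrpprcWT replicate 2 was the lowest of its group. Timp1 and Myc also passed after median-of-ratios scaling (adjusted p = 0.0397 and 0.0272). The liver acute-phase genes Fgb and Fgg were listed at 0 in all 6 libraries.

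Among the ligands outside the list, 2 of 5 tested genes were lower, and 4 with the block. The count was 0 without LrpprcWT replicate 1 or 3 and 1 without LrpprcP27A replicate 2 or 3. Clcf1, cardiotrophin-like cytokine factor 1, was at 3.57, 2.05 and 3.77 TPM with LrpprcWT and at 0.844, 1.06 and 0.922 TPM with LrpprcP27A. Its difference was -1.06 (SE 0.19, adjusted p = 0.0160 in limma, 0.0257 after median-of-ratios scaling). Ebi3, a subunit of IL-27, had means of 2.15 ± 0.628 and 0.716 ± 0.305 TPM (SD, n = 3 each) and a difference of -0.87 (SE 0.20, adjusted p = 0.0247 in limma). Both genes lie near the low end of the levels tested.

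Of the receptor chains outside the list, 1 of 3 tested was lower, 2 with the block and 0 after median-of-ratios scaling. It was 0 without LrpprcWT replicate 1 or 3 and without LrpprcP27A replicate 2 or 3. Il11ra1, the IL-11 receptor chain, was at 18.0, 15.2 and 20.1 TPM with LrpprcWT and at 11.8, 9.24 and 9.75 TPM with LrpprcP27A. Its difference was -0.74 (SE 0.15, adjusted p = 0.0187 in limma, 0.0590 after median-of-ratios scaling). Cntfr, the receptor chain for ciliary neurotrophic factor, was at 12.7, 13.2 and 32.7 TPM and at 5.36, 8.54 and 20.8 TPM. Like Cish it had a high replicate 3 in both groups. As deposited, its difference of -0.77 (SE 0.47) had an adjusted p of 0.210 in limma and of 0.000182 with the block. Scaled by median-of-ratios factors, its difference was -0.38, with an adjusted p of 0.608 in limma. Fitting the replicate number to those scaled values gave an adjusted p of 0.0504 in limma, so Cntfr passed the threshold only as deposited.

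Of the Janus kinases and other STATs, 3 of 9 tested were lower and 0 higher. With the block, 6 were lower and 1 higher, and after median-of-ratios scaling 0 were lower and 2 higher. No gene of this list was lower without LrpprcWT replicate 1 or 3 or without LrpprcP27A replicate 1 or 2, 1 was without LrpprcP27A replicate 3, and 6 were without LrpprcWT replicate 2. The 3 lower genes were Stat2, a factor of the type I interferon response, with a difference of -0.85 (SE 0.25, adjusted p = 0.0422), Stat6, which acts downstream of IL-4 and IL-13, with -0.57 (SE 0.17, adjusted p = 0.0448), and Stat5a with -0.55 (SE 0.14, adjusted p = 0.0289), all in limma. After median-of-ratios scaling their adjusted p values were 0.129, 0.265 and 0.173. Stat5b, the STAT downstream of growth hormone and the one gene higher with the block, was outside the naming rule and is given because of that count. It was at 67.3, 68.5 and 51.3 TPM with LrpprcWT and at 74.2, 90.9 and 79.1 TPM with LrpprcP27A, a difference of 0.39 (SE 0.14, adjusted p = 0.0695 in limma and 0.0168 with the block). Its groups did not overlap, and it had the highest level of the STAT genes in every library. After median-of-ratios scaling its difference was 0.80 (adjusted p = 0.0452 in limma and 0.0089 with the block). The other gene higher on that scale was Jak2, with 0.73 (adjusted p = 0.0287 in limma).

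Of 13 inhibitors outside the list, all tested, 1 was lower, 9 with the block and 1 after median-of-ratios scaling, and 8 were without LrpprcWT replicate 2 and 0 without LrpprcWT replicate 3. The lower gene was Ptpn6, the phosphatase SHP-1 of blood cells, at 3.36, 3.54 and 4.17 TPM with LrpprcWT and at 1.92, 0.819 and 1.22 TPM with LrpprcP27A, with a difference of -1.04 (SE 0.19, adjusted p = 0.0163 in limma). Ptpn11, the widely expressed phosphatase SHP-2, which binds gp130 at the site that Socs3 uses, had means of 42.0 ± 3.66 and 39.8 ± 1.43 TPM (SD, n = 3 each) and a difference of -0.07 (adjusted p = 0.595). Socs7 had means of 26.3 ± 3.21 and 24.7 ± 1.48 TPM (SD, n = 3 each) and a difference of -0.08 (adjusted p = 0.610). After median-of-ratios scaling both differences were positive, at 0.34 and 0.33.

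Of the other cytokine and hormone receptors that use Janus kinases, 7 of 13 tested were lower, 10 with the block and 2 after median-of-ratios scaling. The count was 0 without LrpprcWT replicate 1 or 3 and without LrpprcP27A replicate 2 or 3. It was 9 without LrpprcWT replicate 2 and 8 without LrpprcP27A replicate 1. The largest decreases were in Ifnar2, a chain of the type I interferon receptor, with a difference of -0.99 (SE 0.21, adjusted p = 0.0205), in Il2rg, the common gamma chain, with -0.98 (SE 0.28, adjusted p = 0.0381), and in Il13ra1, a chain of the IL-13 receptor, with -0.90 (SE 0.21, adjusted p = 0.0262), all in limma. Ifnar2 had means of 8.16 ± 1.96 and 3.59 ± 0.904 TPM (SD, n = 3 each). Ifnar2 and Il13ra1 also passed after median-of-ratios scaling (adjusted p = 0.0370 and 0.0425) and Il2rg did not (0.0827).

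**Figure D4:**
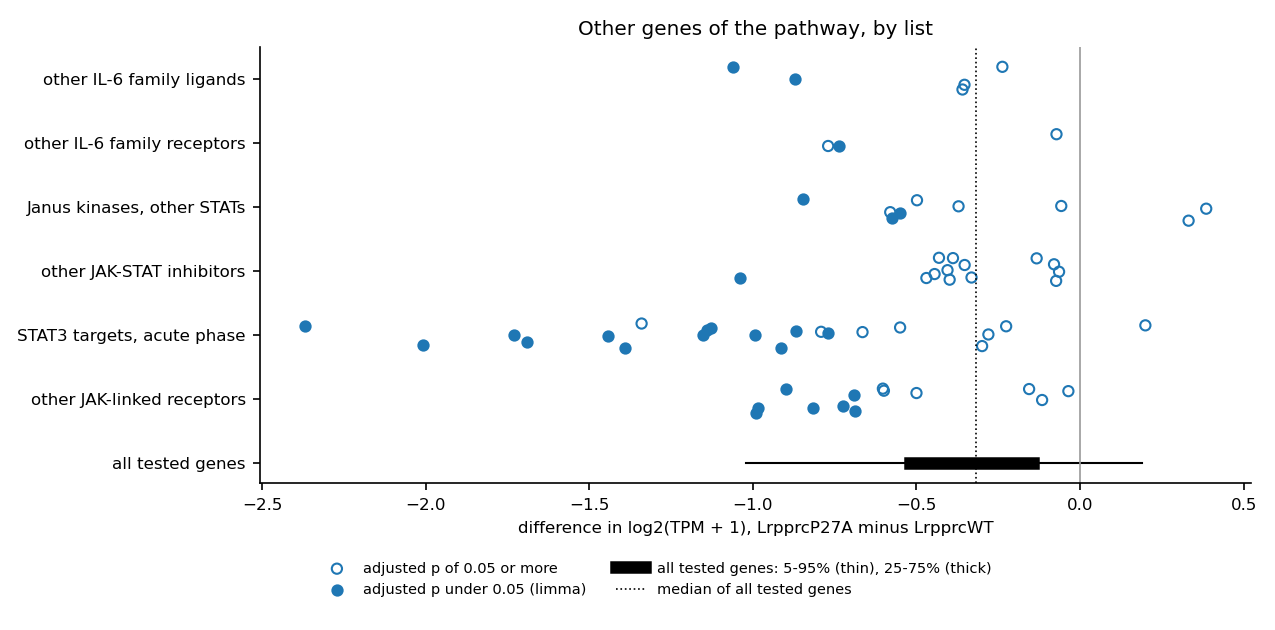
Difference in log2(TPM + 1), LrpprcP27A minus LrpprcWT (horizontal axis), of the 64 tested pathway genes in 6 lists. Filled points had an adjusted p under 0.05 in limma, the bar at the bottom gives the range of all tested genes (5% to 95% thin, 25% to 75% thick) and the dotted line their median. The STAT3 target and acute-phase list reaches furthest to the left, and 3 points lie right of 0.

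The letters TTCNNNGAA were in 7 of the 80 RefSeq windows found for 59 of the pathway symbols, those of Fgb, Icam1, Ifnar1, Ifnar2, Il31ra, Prlr and Zfp36. That is 8.75%, against 8.30% of all windows.

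Cell type markers were summed in each library. Myofibre markers made up 98250 to 109033 TPM with LrpprcWT and 94167 to 106880 TPM with LrpprcP27A, so that the defining markers of muscle were present throughout, and 0 of 6 were called in limma. Macrophage markers summed to 231 to 431 TPM with LrpprcWT and 77.9 to 145 TPM with LrpprcP27A. In limma 8 of 8 were lower at an adjusted p under 0.05, where 23.3% of all tested genes were. Fibro-adipogenic progenitor and fibroblast markers summed to 862 to 1408 and 248 to 504 TPM (5 of 6 lower), and satellite cell and myoblast markers to 64.2 to 109 and 26.0 to 36.2 TPM (3 of 5 tested lower). Endothelial markers summed to 167.0 to 299.5 and 126 to 175 TPM (1 of 6 lower), neutrophil markers to 35.2 to 57.1 and 25.4 to 41.3 TPM (0 of 4 tested, with Ly6g at 0 in at least 1 library), and T cell markers to 3.05 to 4.13 and 1.05 to 2.12 TPM (0 of 1 tested). These sums are as deposited. After median-of-ratios scaling, myofibre markers summed to 77309 to 106918 with LrpprcWT and 105083 to 128678 with LrpprcP27A, with a median difference of 0.37. Macrophage sums (224 to 338 and 93.8 to 161) and fibroblast sums (878 to 1108 and 298 to 563) stayed lower with LrpprcP27A. Endothelial sums overlapped (170 to 236 and 152 to 195).

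These marker sums, as deposited, are set beside the pathway genes here. In percent of the LrpprcWT mean, the LrpprcP27A libraries held 13.1% to 26.2% of Socs3, 24.7% to 45.8% of the macrophage markers, 20.8% to 42.4% of the fibroblast markers and 90.5% to 103% of the myofibre markers. Within LrpprcWT, replicate 2 had the lowest macrophage sum (73.3% of the mean), the lowest fibroblast sum (72.5%) and the lowest Il6 (17.6%) and Stat3 (63.4%), but the highest Socs3 (109%). The part of these cell types in the differences of the pathway genes was not tested.

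**Figure D5:**
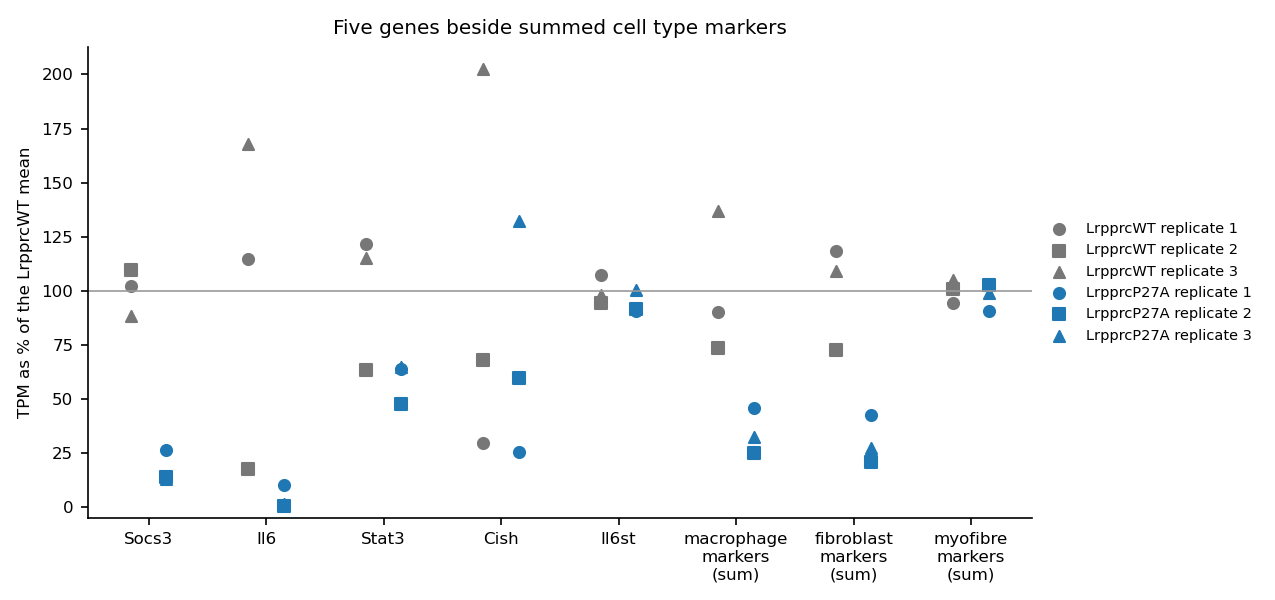
TPM of 5 genes and of 3 summed marker lists in each library, as a percent of the LrpprcWT mean (vertical axis), with LrpprcWT in grey, LrpprcP27A in blue and marker shapes for the replicate number. Socs3, macrophage and fibroblast markers are low in all LrpprcP27A libraries. On this scale, as deposited, Il6st and the myofibre markers stay near 100%, and Cish follows the replicate number.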

How the data were processed

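RNA was extracted from TA muscles with TRIzol, and libraries were made with the TruSeq RNA Sample Prep v2 Kit and sequenced on a NovaSeq as paired-end reads of 100 bp. The authors trimmed reads (quality of at least 20, length of at least 50 bp), mapped the reads with CLC Genomics Workbench to GRCm39, and deposited a TPM value per gene and library. The annotation version is not given in the sources used here. TPM keeps no depth, so the depth per sample and counting error are unknown, and precision is limited by 3 libraries per group. Scaling to a fixed total makes each value depend on the other genes, mitochondrial genes among them (36.0% to 45.2% of the TPM with LrpprcWT, 44.2% to 46.1% with LrpprcP27A).

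Groups and replicate numbers were taken from the sample labels. The 11611 genes whose mean TPM reached 1 were taken to log2(TPM + 1) and fitted with limma 3.58.1 under R 4.3.3 (empirical Bayes with a trend, Benjamini-Hochberg adjustment over all 11611 genes, threshold 0.05). The fit was tested on simulated data. The SE of a difference is limma's (except for Lif), from the fit without the replicate block, so it also holds the spread between replicate numbers. In limma the variance of a gene is drawn towards a trend over all genes. From the 6 libraries alone, the SE was 0.81 for Il6, 0.89 for Cish and 0.29 for Socs3. It was larger than limma's for each fitted gene of the 10 except Il6st (0.071) and Socs2 (0.115), where it was smaller. The study's own Kruskal-Wallis test, a pseudocount of 0.1, no filter, median-of-ratios factors from the TPM of genes above 0 in all libraries, the replicate number as a block, the block with median-of-ratios factors, and each library left out in turn were alternatives. The 10 genes, the lists and the tests were chosen with earlier results of these data known. Pathway genes were named by rule: the up to 3 largest decreases and up to 2 largest increases past the threshold in each list, or, with fewer than 2 calls, the 2 tested genes of highest mean TPM beside any gene called, and the 5 genes most like Socs3. Gene positions are those of GENCODE on GRCm39, and promoter windows those of RefSeq on GRCm38.p6.

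The study describes the muscles as contralateral, and both groups carry the same library numbers, though no source states that the number is the mouse. Across genes, deviations from the mean of the group had correlations of 0.363, 0.528 and 0.356 within the pairs of replicates 1, 2 and 3. Between muscles of other numbers they were -0.362 to 0.0040. Deviations cancel within a group, so positive correlations within pairs push the others down, and that range is not separate evidence. Given the contralateral design and the shared numbers, the numbers were taken to pair the muscles. With 3 libraries per group the correlations cannot decide this, and what muscles of the same number share was not tested.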

Additional observations from a re-analysis of the deposited data

How the results depend on the processing

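The lower and higher calls over all tested genes were 2705 and 156. With a pseudocount of 0.1 they were 2760 and 155, without the filter 42 and 9, after median-of-ratios scaling 675 and 793, with the replicate block 5619 and 312, and with the block and median-of-ratios scaling together 1636 and 1995. Leaving out 1 library gave 15 to 6913 lower and 3 to 304 higher calls. The adjusted Kruskal-Wallis test gave 0 and 0, since with 3 against 3 its p cannot go below 0.0495, and unadjusted it gave 5530 and 407. The 27 lower and 0 higher pathway genes became 27 and 0 with a pseudocount of 0.1, 0 and 0 without the filter, 8 and 2 after median-of-ratios scaling, 48 and 1 with the replicate block, 21 and 7 with block and scaling, 0 and 0 by the adjusted Kruskal-Wallis test (32 and 1 unadjusted), and 0 to 41 and 0 to 1 with 1 library left out. The causes of these shifts were not tested.

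Median-of-ratios scaling, with and without the block, turned the sign of Il6st (0.33), Socs2 (0.13), Cish (0.053), Ptpn11 (0.34) and Socs7 (0.33). With 1 library left out, Cish ranged from -0.85 to 0.34 (positive without LrpprcWT replicate 3 and, at 0.19, without LrpprcP27A replicate 1), and Socs7 from -0.15 to 0.013 (positive without LrpprcWT replicate 1). The other 7 of the 10 genes kept their direction under all alternatives run, and a pseudocount of 0.1 moved Il6 (-4.23), Lif (-1.12) and Socs1 (-1.50) by more than their spread. Median-of-ratios scaling, with and without the block, likewise moved Socs3 (-1.97) and Stat3 (-0.28) by more than their spread. Of the 16 named pathway genes, the block changed 1 call, that of Cntfr, and 13 lost their call without the filter and by the adjusted Kruskal-Wallis test. With 1 library left out, 13 lost it without LrpprcWT replicate 3, 12 without LrpprcWT replicate 1, 9 without LrpprcP27A replicate 2, 7 without LrpprcP27A replicate 3 and 3 without LrpprcP27A replicate 1, and 0 without LrpprcWT replicate 2. Read depth is unknown, so no limit of detection can be given for genes near 0 such as Il6 with LrpprcP27A.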
